A study of Drosophila melanogaster with 2 samples.

Results

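The genes disco-r (disco-related) and disco (disconnected) are neighbouring paralogs on the X chromosome of Drosophila melanogaster, and their 2 loci are described here as they appear in a map, across the embryonic genome, of a GFP-tagged protein that most labels name as disco-r. Members were all listed regions whose summit lay in either gene body, in the interval between the genes or within 50 kb, which is X from 16068067 to 16266750 in the dm6 build. The rule took 13 of 2334 peaks that passed the irreproducible discovery rate (IDR), which scores the agreement of region ranks between replicates. It also took 60 of 29347 pooled candidates, 57 of 30000 candidates of replicate 2 and 66 of 30000 of replicate 3. It used position only and no measured value.

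The proteins of both genes are zinc-finger transcription factors of the nucleus. In fly embryos they act redundantly, and together with the Hox proteins Deformed and Sex combs reduced they specify the gnathal segments of the head. Either gene can serve in the formation of the ventral appendages. Loss of disco disrupts the link between the larval optic nerve and the brain, which gave the gene its name. Chromatin immunoprecipitation with sequencing (ChIP-seq) recovers the DNA near a protein, so a peak marks where the tagged protein, or something bound with it, was enriched.

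The material was whole embryos of pooled sex, 0 to 24 h after egg laying, of the transgenic strain disco-r-GFP, and a GFP antibody was used for the precipitation. There were 2 biological replicates, numbered 2 and 3, in 1 group, with no untreated group and no contrast. Chromatin had been sonicated to fragments of 200 to 800 bp. The labels name disco-r as the target of the insertion, while a note in them says that GFP was joined to the C terminus of disco, and the files do not settle which. The labels give neither the extent of the inserted sequence nor its place in the genome, so its part in the counts at its own locus was not tested. Reads from an extra copy would be counted at the native place, which could raise counts at disco-r and at any neighbour the insert holds. All cells of the embryo were pooled, so occupancy in few cells cannot be told apart from weak occupancy in many. Read depth is unknown.

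Both genes are read from the minus strand, so a higher coordinate lies upstream. In the Ensembl annotation disco-r (FBgn0285879) runs from 16118067 to 16148977, with 3 transcripts that start at 16148977 and a shorter one that starts at 16124332, inside the gene. The gene disco (FBgn0000459) runs from 16210598 to 16216750, with transcription start sites (TSS) at 16216750 and 16216746. The genes are separated by 61.6 kb that hold no other protein-coding gene, though the microRNA gene mir-985 and the non-coding gene lncRNA:CR46211 lie there. Below disco-r come CG42353 and CG42354, which share 1 interval (16093059 to 16104946), then Tob, which encodes a BTG/Tob family antiproliferative factor, CG8958, mir-4958, Nipsnap and dpr18. Above disco lie the spliceosomal RNA genes snRNA:U5:14B and snRNA:U2:14B and, near the edge, CG12507.

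The proteins encoded by these genes differ in size. Translation of the longest annotated coding sequence gave 1311 residues for disco-r and 568 for disco. Over 533 residues paired in a global alignment 46.3% were identical, and over 418 in a local alignment 41.4%. The C2H2 zinc-finger pattern, a pair of cysteines and a pair of histidines at set spacings, covered residues 94 to 120 of disco and residues 477 to 503 of disco-r. These stretches were identical at 24 of 27 residues. A further match in disco-r, at residues 1028 to 1049, shared 6 of 21 aligned residues with disco.

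The sequences at the summits that the results turn on are shown first, since they differ widely in composition. Each is the summit base with 100 bases on either side, read from the minus strand of the dm6 sequence of chromosome X, so that it runs in the direction of transcription of both genes. Capitals mark matches, on either strand, to 7 words known from fly regulatory sequence. GAGA factor, which opens chromatin at promoters, is known to bind the word GAGAG. The boundary and promoter factor DREF is known to bind TATCGATA. A part of the core bound by the insulator protein CTCF is AGGNGGC. An E-box read by many helix-loop-helix proteins is CAGCTG. The early embryonic activator Zelda is known to bind CAGGTAG. The TATA box of promoters was searched as TATAAA, and the core that many homeodomain proteins bind as TAATTA. The opening 6 lines belong to the 2 genes and the interval between them, and the closing 2 to the strongest regions of the neighbourhood.
disco promoter, chrX:16217041-16217241: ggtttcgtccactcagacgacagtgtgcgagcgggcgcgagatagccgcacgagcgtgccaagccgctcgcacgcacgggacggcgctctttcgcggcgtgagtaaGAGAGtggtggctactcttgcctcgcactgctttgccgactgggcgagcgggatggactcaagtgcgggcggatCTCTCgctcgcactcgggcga
disco-r promoter, chrX:16149042-16149242: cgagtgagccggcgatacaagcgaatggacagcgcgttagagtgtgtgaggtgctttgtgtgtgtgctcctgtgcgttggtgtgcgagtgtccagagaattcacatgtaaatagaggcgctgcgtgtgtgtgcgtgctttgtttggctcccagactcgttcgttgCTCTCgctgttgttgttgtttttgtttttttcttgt
upstream of disco-r, near, chrX:16150650-16150850: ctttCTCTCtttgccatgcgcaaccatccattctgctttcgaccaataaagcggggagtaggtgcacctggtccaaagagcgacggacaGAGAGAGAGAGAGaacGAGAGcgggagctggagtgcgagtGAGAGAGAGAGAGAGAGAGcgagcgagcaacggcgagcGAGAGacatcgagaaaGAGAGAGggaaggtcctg
upstream of disco-r, far, chrX:16158583-16158783: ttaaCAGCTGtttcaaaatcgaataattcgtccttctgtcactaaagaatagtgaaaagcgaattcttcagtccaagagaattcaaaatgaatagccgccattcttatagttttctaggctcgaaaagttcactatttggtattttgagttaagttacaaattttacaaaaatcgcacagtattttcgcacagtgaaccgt
disco-r intron, chrX:16140752-16140952: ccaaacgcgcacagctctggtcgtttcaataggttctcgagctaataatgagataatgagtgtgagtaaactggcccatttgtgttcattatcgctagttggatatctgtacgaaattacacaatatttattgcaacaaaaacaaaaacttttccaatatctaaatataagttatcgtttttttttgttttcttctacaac
disco-r internal start, chrX:16123947-16124147: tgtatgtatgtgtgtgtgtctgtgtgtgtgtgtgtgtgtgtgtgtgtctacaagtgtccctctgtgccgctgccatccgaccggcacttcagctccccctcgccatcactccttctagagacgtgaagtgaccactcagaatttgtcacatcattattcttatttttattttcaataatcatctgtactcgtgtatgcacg
CG42353 promoter, chrX:16105043-16105243: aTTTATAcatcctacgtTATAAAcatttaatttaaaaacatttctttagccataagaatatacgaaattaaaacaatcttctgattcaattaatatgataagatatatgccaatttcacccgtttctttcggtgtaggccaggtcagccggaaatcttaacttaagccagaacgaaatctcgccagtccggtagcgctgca
Tob intron, chrX:16090270-16090470: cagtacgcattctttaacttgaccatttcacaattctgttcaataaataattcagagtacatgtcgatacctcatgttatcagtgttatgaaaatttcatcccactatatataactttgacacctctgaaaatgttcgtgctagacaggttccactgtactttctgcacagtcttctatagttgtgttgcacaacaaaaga

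The disco promoter window was the richest in G and C of all. Its GC content was 66.2%, a level reached by 0.0428% of the 2334 IDR peaks, that is by this peak alone, while the median IDR peak stood at 36.8%. It held 2 matches to GAGAG, and 8.18% of IDR peaks held as many. At the disco-r promoter the GC content was 50.7%, with 1 match to GAGAG. Here the longest alternating GT run, on either strand, was 10 bases, a length reached by 1.84% of IDR peaks.

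A pair of windows carried long simple repeats. The near upstream window of disco-r held 18 overlapping matches to GAGAG and an alternating GA run of 19 bases. As many matches were found in 0.0857% of IDR peaks, and a GA run as long in 0.343%. The window named disco-r internal start has its summit 285 bp downstream of that start and does not reach it. In this window a GT run of 27 bases stood left of the summit as printed, and 0.129% of IDR peaks had one as long. The intron window of disco-r and the far upstream window had a GC content of 33.3% and 33.8% and no such run.

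Matches to the words were few. Of the 13 IDR peaks 4 held GAGAG (the promoters of both genes, the near upstream window and a peak at the start of Tob), beside 25.3% of all IDR peaks and 24.7% of candidates that did not pass. TATAAA was in 1 (the CG42353 promoter), beside 29.9% and 19.6%, and CAGCTG in 1 (the far upstream window), beside 10.2% and 10.7%. No member peak held the DREF, CTCF, Zelda or homeodomain word, which were found in 3.77%, 5.91%, 0.943% and 14.01% of IDR peaks. A match is a string of letters and not a bound site. With 13 peaks these counts say little about any word. The longest stretch common to the promoter windows of both genes was 9 bases, GTGTGCGAG, at base 80 of the disco-r window and base 23 of the disco window.

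Each of the 2 genes had a peak just upstream of its start. Of 13945 protein-coding genes, 11.5% had an IDR summit within 500 bp of a TSS. At disco-r the region ran from 16148942 to 16149341, with a summit 165 bp upstream of the TSS. Its pooled signal, the authors' own value per region with no stated scale, was 139 (rank 680 of 29347). At disco the region ran from 16216941 to 16217340, with a summit 391 bp upstream and a pooled signal of 134 (rank 722). The promoter regions of the paralogs thus lay close in the pooled list.

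The replicates ordered this pair differently. In replicate 2 the disco-r promoter region had a signal of 86.4 (rank 449) and the disco region 63.8 (rank 890). In replicate 3 the disco region had 68.8 (rank 678), and the disco-r promoter was split into a region of 55.4 (rank 1013, summit 20 bp upstream) and one of 48.4 (rank 1343, summit 277 bp upstream). So disco-r ranked above disco in replicate 2 and below it in replicate 3, and the pooled order does not hold in both. At disco the summits of the replicates lay 13 bp apart, at 395 and 382 bp upstream. The single summit of replicate 2 at disco-r, 177 bp upstream, lay between those of replicate 3.

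**Figure D1:**
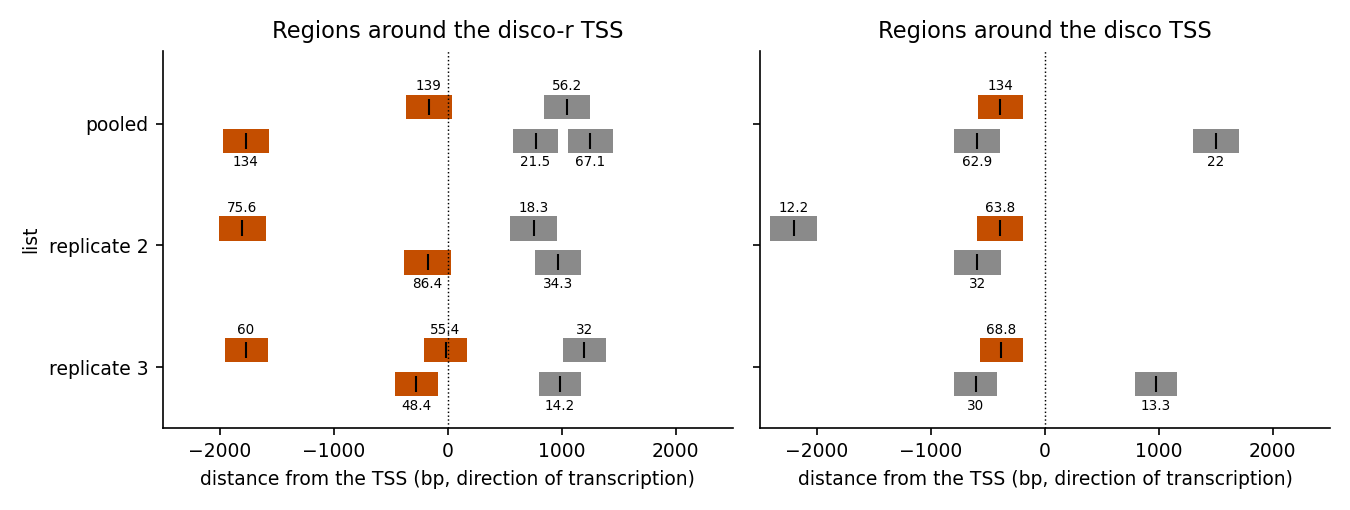
Regions around the 5′-most TSS of disco-r (left) and disco (right) in the pooled list and in each replicate, drawn to scale along the direction of transcription (bp). Bars are regions, ticks are summits, numbers are the list's own signal, and orange marks the strongest 2334 regions of a list. The disco-r promoter is 1 region in replicate 2 and 2 regions in replicate 3, while the disco promoter has 1 orange region in every list.

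Smaller regions lay beside both promoters. Upstream of the disco peak a second candidate had its summit 596 bp from the TSS (pooled signal 62.9, rank 3033), with 31.98 in replicate 2 and 29.98 in replicate 3. It did not pass IDR. Inside disco-r, 5′ UTR candidates stood 1251, 1047 and 770 bp downstream of the TSS with pooled signals of 67.1, 56.2 and 21.5. None of the 3 passed, beside 5.98% of all 5′ UTR candidates. The first of them was matched in replicate 3 only (rank 2854) and the last in replicate 2 only (18.3).

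The interval between the genes held 3 peaks, all within 10 kb of the disco-r start. They were the promoter peak and peaks 1773 bp and 9706 bp upstream. The near one had a pooled signal of 134, with 75.6 in replicate 2 (rank 598) and 60.0 in replicate 3 (rank 888). The far one had the highest pooled signal of the interval, 156 (rank 528), with 61.5 in replicate 2 (rank 963) and 94.4 in replicate 3 (rank 335). Both were thus among the strongest 2334 of each replicate, and the far one ranked above the promoter peak in replicate 3 and below it in replicate 2. Farther out, 22642 bp upstream of disco-r, a candidate missed the list narrowly at 72.3 (rank 2346), where the lowest IDR peak had 72.5. Its signal was 25.2 in replicate 2 (rank 6346) and 48.8 in replicate 3 (rank 1325), so it was strong in 1 replicate only. From there to the disco body came 4 more candidates, with pooled signals of 22.04 to 27.5. Around mir-985 no pooled candidate lay within 2 kb, and the nearest was 3204 bp from its start.

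Within the body of disco-r, 2 of 19 candidates passed (10.5%), a share close to the 7.95% of all pooled candidates and the 9.99% of those on X. One lay in the long intron, 8125 bp downstream of the start, with a pooled signal of 91.0 (rank 1502), 51.4 in replicate 2 and 49.2 in replicate 3. Its summits in the replicates were 8 bp apart and its ranks (1376 and 1300) were close. The other lay 285 bp downstream of the internal TSS at 16124332, with a pooled signal of 76.4 (rank 2118), 45.6 in replicate 2 (rank 1752) and 23.0 in replicate 3 (rank 5665). It was thus among the strongest 2334 regions of replicate 2 and not of replicate 3. A candidate nearer the internal TSS, 82 bp downstream of it, had a pooled signal of 35.0 (rank 9561) and did not pass. Coding exons of disco-r held 3 candidates of 21.5 to 34.7 and none passed, as was usual for coding exons, where 0.142% of all candidates passed. In the body of disco were 2 candidates, 1 in the coding exon (24.3) and 1 in the intron (22.01), and replicate 2 listed none there.

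**Figure D2:**
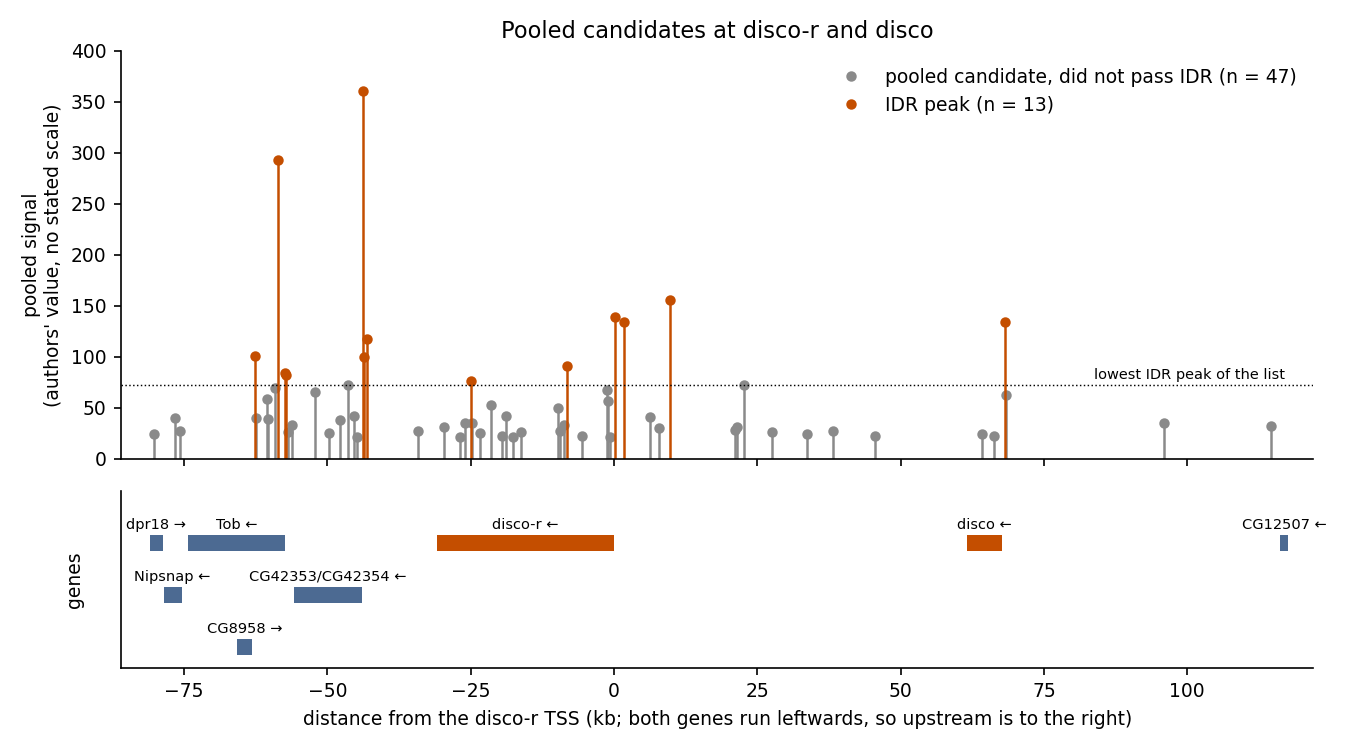
Pooled signal (authors' value, no stated scale) of the 60 pooled candidates against the distance of their summit from the disco-r TSS (kb), with the protein-coding genes of the region below and arrows for their direction. Orange marks the 13 IDR peaks. The tallest, 361 and 293, lie beyond the 3′ end of disco-r, and disco has 1 peak, at 134.

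Many of the peaks lay at the neighbours of disco-r. Of the 13 IDR peaks 7 lay below the 3′ end of disco-r, at Tob and at CG42353. They were 7 of 23 candidates there (30.4%), beside 7.95% of all pooled candidates and 9.99% of those on X. The strongest region lay 197 bp upstream of a start that CG42353 shares with CG42354, and which is named here by CG42353 alone. This region had a pooled signal of 361 (rank 74), with 176 in replicate 2 (rank 77) and 192 in replicate 3 (rank 68). Its interval was listed again with a second summit 209 bp away, at 16105352 (99.9), and both rows were matched to the same region in each replicate. The match is by interval, and replicate 2 also listed a weaker region with its summit at 16105364 (29.5, rank 4547). So the replicate ranks of the second row are those of the main summit. A separate peak 934 bp upstream of CG42353 (117.1, rank 948) had 32.5 in replicate 2 (rank 3702) and 85.5 in replicate 3 (rank 419). In Tob, an intron peak had a pooled signal of 293 (rank 114), with 129 in replicate 2 (rank 163) and 174 in replicate 3 (rank 87). An intron peak near another start of Tob had 101, with 39.3 (rank 2442) and 53.6 (rank 1087).

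At the 5′ end of Tob, 2 peaks overlapped. They had pooled signals of 84.3 and 82.5 with summits 30 and 230 bp from the start, and both were matched to 1 region of replicate 2 (60.5, rank 986). In replicate 3 they were matched to separate regions of 35.3 (rank 2397) and 20.03 (rank 8062). With overlapping regions joined, the 13 peaks came to 11 sites. No IDR peak lay within 2 kb of dpr18, Nipsnap, mir-4958, mir-985, lncRNA:CR46211, CG12507 or either spliceosomal RNA gene.

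**Figure D3:**
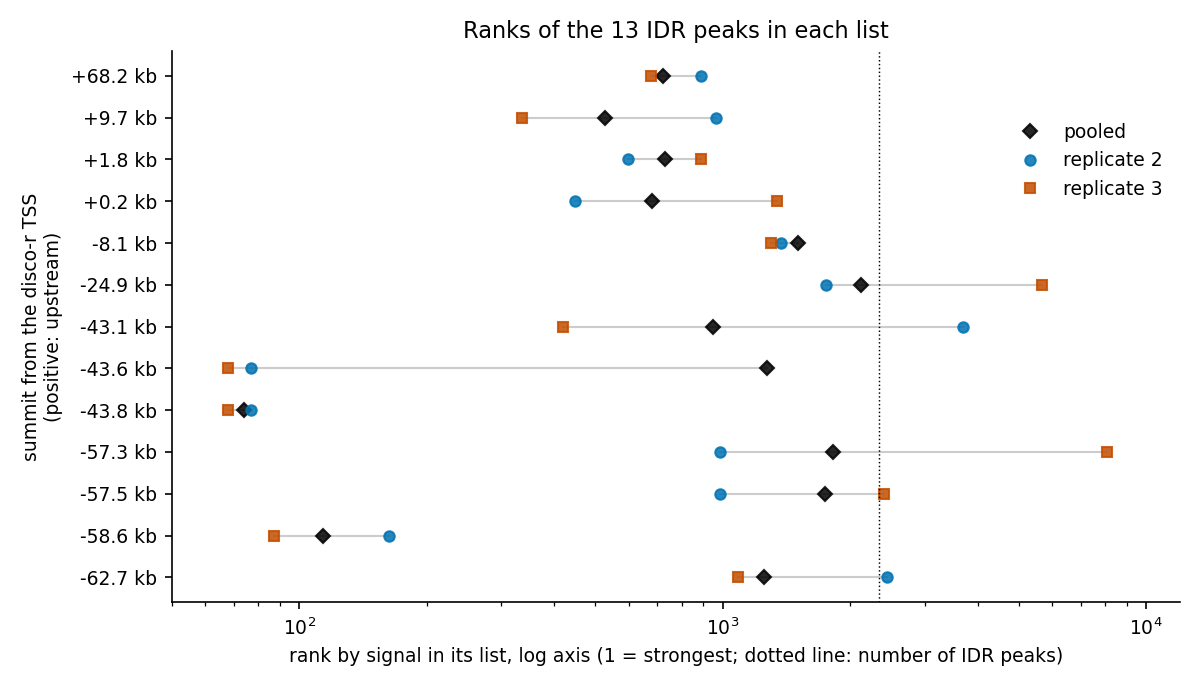
Rank of each of the 13 IDR peaks in the pooled list and of the region matched to it in each replicate (log axis, 1 is the strongest), ordered by the position of the summit from the disco-r TSS. The dotted line is rank 2334. The strongest peak, at CG42353, ranks 74, 77 and 68, while the second of the overlapping Tob peaks ranks 986 in replicate 2 and 8062 in replicate 3. The second row of the CG42353 interval is drawn at the same replicate ranks as the first, since both were matched to the same regions.

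All 13 peaks had a matching region, covering at least 50% of the peak, in each replicate, as did 99.4% of all 2334 IDR peaks. The matched region was not always a strong one. In 8 of 13 (61.5%) both matched regions were among the strongest 2334 of their list, beside 66.6% of all IDR peaks. The 8 include the second CG42353 row, which takes the replicate ranks of the first through their shared interval. Over the 13 peaks the log2 ratio of replicate 3 to replicate 2 signal ran from -1.59 to 1.40, with a median of 0.11 and an SD of 0.79. Over 2319 IDR peaks the median was -0.05 and the SD 0.55. Members stood on both sides of that median, 7 above and 6 below. Since peaks that share a replicate region repeat its value, these are not 13 separate ratios.

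Taken list by list, the locus counts stood as follows. Of the 60 pooled candidates 13 passed IDR (21.7%, 95% Wilson interval 13.1 to 33.6, for counting error only), beside 7.95% of all pooled candidates and 9.99% of those on X. Among the strongest 2334 candidates of a replicate, which are 7.78% of its list, were 13 of 57 locus regions in replicate 2 and 11 of 66 in replicate 3. So the share of strong regions was above the list's in either replicate. Neighbouring regions are not independent, and the difference was not tested. In replicate 2, 4 of the 13 overlapped no IDR peak, and in replicate 3, 1 of the 11, beside 17.1% and 15.3% of all the strongest 2334 regions of these lists.

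In the whole list candidates at promoters passed more often than the rest, and so they did here. At promoters (within 500 bp of a protein-coding TSS) 7 of 11 locus candidates passed (63.6%), beside 15.3% of all promoter candidates. Outside promoters 6 of 49 passed (12.2%), beside 5.23%. The 7 promoter peaks comprise 2 at CG42353, 2 at Tob, 2 at disco-r and 1 at disco. The 2 at CG42353 share 1 interval and the 2 at Tob overlap, so the 7 are not all separate sites. The promoter share with such rows joined was not computed. The other 6 were 3 in introns and 3 between genes. Counted by candidates alone, promoters made up 18.3% of the locus and 27.1% of the pooled list, while 18 of the 60 lay between genes, beside 17.6% of the pooled list.

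The loci of the paralogs differed in the number of regions around them. Within 50 kb of disco-r lay 54 candidates and 12 IDR peaks, and within 50 kb of disco 13 candidates and 1 IDR peak. The median protein-coding gene had 29 and 2 within the same flanks. At least as many IDR peaks as at disco-r were found at 14 of 13945 genes (0.1%, disco-r included), and at least as many as at disco at 82.2%. These shares are for rows as listed. With identical intervals counted once disco-r had 11 peaks, and with overlapping regions joined 10. A long gene has a wider window, and disco-r at 30.9 kb is longer than disco at 6.15 kb, so these counts are not densities. The part of the inserted sequence in the counts near disco-r was not tested. The windows of the 2 genes also share part of the interval between them.

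Per length, the candidates were dense over disco-r and below it, and sparser toward disco and above it. The body of disco-r had 6.15 candidates per 10 kb and the 50 kb below it 4.6, against 1.83 over X. The body of disco had 3.25, from 2 candidates, the interval between the genes 1.95, and the 50 kb above disco 0.8. Around disco, with 50 kb on either side, the density was 1.225. In the interval, the 10 kb bins from the disco-r TSS to 60 kb upstream held 5, 0, 4, 2, 1 and 0 candidates. Of 51 consecutive bins of 10 kb around the loci, the highest held 8 candidates, a count reached by 1.36% of the 2354 bins of X, whose median was 1. That share is for any single bin, while 8 is the highest of 51, so it does not measure how unusual the locus is. The bin 130 to 140 kb upstream of the disco-r TSS, beyond the window, was among those with 8. From 70 kb downstream to 10 kb upstream of the disco-r TSS, a stretch of 80 kb, lay 44 candidates (5.5 per 10 kb) and 12 of the 13 peaks. The bins just beyond its ends held 2 and 0 candidates, so these values depend on where the ends were set. From 140 to 90 kb downstream all 10 kb bins were empty. Above disco a gap of 27625 bp separated 2 neighbouring summits, and 2.57% of gaps on X were as long. At the edges of the window, the first candidate inside had a signal of 23.8 and the nearest one outside, on that side, 31.0, lying 62597 bp beyond the edge. On the other side the last inside had 31.7 and the nearest outside 35.3, with an IDR peak of 73.4 lying 4209 bp beyond the edge.

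**Figure D4:**
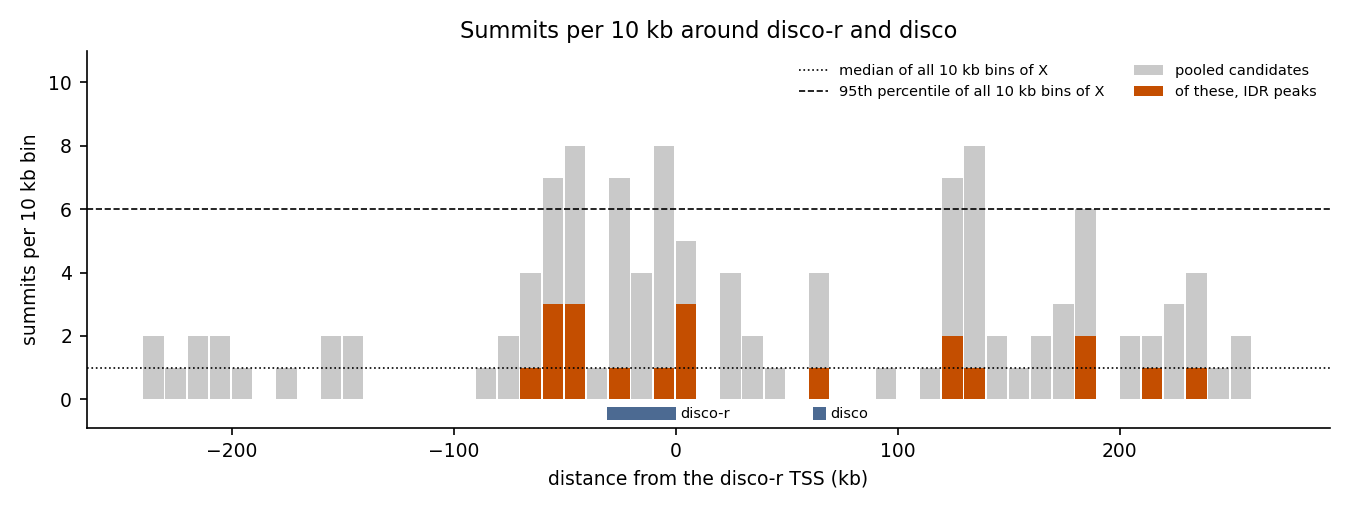
Pooled candidates (grey) and IDR peaks among them (orange) per 10 kb bin, from about 200 kb below disco-r to 200 kb above disco, against distance from the disco-r TSS (kb). Dotted and dashed lines give the median (1) and the 95th percentile (6) of all such bins of X. Bins of 7 or 8 candidates lie over disco-r and its neighbours below, and again 120 to 140 kb upstream, beyond the window, while disco stands in a bin of 4 with 1 peak.

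In the replicates' own lists too the body of disco-r held more regions than that of disco. The body of disco-r held 16 regions in replicate 2 and 21 in replicate 3, and the body of disco 0 and 2. The bodies are 30.9 kb and 6.15 kb long, so these counts are not densities. Between the genes lay 14 and 16, and above disco 7 and 5. In the locus 47.4% of the regions of replicate 2 were matched in replicate 3, beside 40.3% over the whole list. In the other direction the shares were 47.0% and 40.4%.

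Regulators of the tissues in which disco and disco-r are known to act were looked at for peaks in the same list. Of 41 matched genes on a list of head, leg, optic lobe and clock regulators, 10 (24.4%) had an IDR summit in the body or within 2 kb, beside 22.2% of all protein-coding genes, which is close to the background. The list named 1 more symbol, B, that was not matched. Among head patterning genes and partners 3 of 11 had a peak, at oc, a homeobox gene of the anterior head (98.8), cnc, a bZIP gene of the mandible (98.0), and hth, a cofactor gene of the Hox proteins (79.7). The Hox partner genes Dfd and Scr, named for their role, had none by this rule, though Dfd had the TSS nearest to 1 IDR peak. With each peak given to the gene of its nearest TSS, 14 of the 41 had one. The share of all protein-coding genes under that rule was not computed, so the 14 cannot be read as above or below background. Of leg genes 5 of 18 had one, with the odd-skipped family gene bowl (200.8), the BMP ligand gene dpp (130.3), the medial leg gene dac (100.4) and the segment polarity gene en (77.0) highest. Dll, the distal leg gene whose expression disco is known to help maintain, had none. Of optic lobe and clock genes 2 of 12 had one, at the clock factor genes Pdp1 (154) and vri (81.1).

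By peak and candidate counts within 50 kb and the strongest promoter signal, on a log2 scale, the genes elsewhere most like disco-r were Tbcd, CG14352, Rab3GAP1, Mrm2 and Ire1. They had 10 or 11 IDR peaks, 50 to 59 candidates and a promoter signal of 151 to 161. Those most like disco were pdgy, CG4860, RpS3A, Rnp4F and lace, with 1 peak, 14 to 16 candidates and a promoter signal of 112 to 163. Likeness is in these 3 values of the same lists and in nothing else, and Mrm2 and Ire1 gave identical values.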

How the data were processed

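Whole-embryo ChIP-seq of a GFP-tagged protein, disco-r by most labels and disco by 1 note, in 2 biological replicates was analysed from the lists the authors deposited. Per the deposited notes, each replicate's candidate list, peaks and background together, was derived from its alignments and 1 control file (a file that is also a source of their control-normalized signal), the pooled list from both replicates and that file, and the IDR list from the candidate lists. For the aligner, peak caller, IDR threshold and depth, nothing is given in the sources used here. The signal value per region was used as deposited by the authors, within a list only; the IDR peaks equal the strongest 2334 pooled candidates. Nearly all regions have 1 width per list (400 bp pooled, 410 and 376 bp in replicates 2 and 3). The dm3 lists were not used here, since no coordinate was converted.

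Regions were joined to Ensembl release 115 (BDGP6.54) and the Release 6 sequence, which is dm6, with Python 3.11.15, pandas 2.3.3 and Biopython 1.88. Counting steps were tested on simulated data. A replicate region was matched where it covered at least 50% of the pooled region, taking the largest overlap. A summit in several classes took the first of promoter, UTR (5′ before 3′), coding exon, intron and other transcribed sequence. Proteins were translated and aligned with BLOSUM62. There is no contrast, so no test was made and no p-value is given. Named genes are the 2 members, genes of the region, up to 4 per heading of the related list with the strongest peaks, the 5 most like each member, and, outside that rule and chosen for their role with values seen, Dfd, Scr and Dll. Members and lists were chosen with earlier results of these data known.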

Additional observations from a re-analysis of the deposited data

How the results depend on the processing

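Of 45 alternatives 34 left a value within its limits (1.5 times for a count, the counting interval for a share, 1 SD for a ratio). With IDR peaks above their median signal only, disco-r kept 6 within 50 kb, and 11.7% of locus candidates passed. Each replicate's strongest candidates alone gave 1 and 2 near disco, and 4 and 5 between the genes. With flanks of 100 kb disco had 9, since its window then takes in 5 peaks at or near disco-r and 3 peaks 120 to 140 kb upstream of the disco-r start. With promoters of 200 bp 3 peaks were at promoters. The disco-r peak, 165 bp upstream, was among them and the disco peak, 391 bp upstream, was not. Within 50 bp of the summit 3 peaks held a word (6 within 100 bp). The local protein alignment gave 41.4% identity. Outside promoters, an alternative added after the data had been seen, 12.2% passed. The cause of the other shifts was not tested. No paired analysis was possible because there is 1 group. Depth is unknown, so counts of weak candidates carry no interval for detection.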

Other observations

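Some neighbouring summits in the locus stood about 1 half-width of a region apart, a larger share than over the whole list. Of 59 neighbouring pairs of pooled summits 7 (11.9%) lay within 210 bp, beside 4.01% of 29341 pairs over the whole list, and the pooled regions are 400 bp wide. Among them are the pairs at the start of Tob, at CG42353 and beside the disco promoter. Whether such a pair is 1 broad site or 2 was not tested.

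The disco promoter peak, whose window has the highest GC content of the IDR list, has its replicate summits 13 bp apart. The disco-r promoter peak has replicate summits 100 bp apart by the best match. They lay closer at the disco-r intron peak (8 bp, GC content 33.3%) and at the peak by the internal start (7 bp, 46.3%), and farther apart at the rest. A link between GC content and this distance was not tested.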
